A study of Mus musculus with 4 samples.

Results

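H13 was examined along its whole length in mouse gonadal adipose tissue, by counting the reads of the maternal and of the paternal allele at every SNP that the deposited counts list under this gene. It is 1 of 11062 genes in the 4 count tables, and 157 of their 305528 SNPs carry its name, 22 of them in exons and 135 in introns. Between 115 (DxB male) and 130 (DxB female) of these SNPs had reads in a pool. Of SNPs that lay within 18 bp of each other in an exon or intron only the foremost was counted, which left 21 exonic and 117 intronic SNPs.

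The mice were F1 animals of 2 reciprocal crosses between the inbred strains C57BL/6J (B) and DBA/2J (D), all fed chow. Every animal was thus heterozygous wherever the strains differ on an autosome. All H13 SNPs list different bases for the strains. Of the 44210 counted exonic SNPs of all genes, 329 list the same base. The 4 RNA pools are named with the mother's strain first. RNA of 3 animals went into each pool except DxB female, which held 2, and each pool gave 1 library of polyA RNA. In BxD pools the B allele is maternal and in DxB pools the D allele is maternal. For 2 samples GEO’s label disagrees with the name of the deposited file on cross and sex. The file name was followed, and with it the maternal share of X-linked reads was 53.6% and 43.4% in the female pools and 98.8% and 84.9% in the male pools. The labels give an age of 8 weeks and the methods one of 16 weeks. With 3353668 to 4254813 reads at counted exonic SNPs per pool, H13 received 856 to 1082 of them. Of the adipocyte genes searched, Lep, Lpl and Cidec together had 148444 to 235503 reads per pool and the other 6 had no counted exonic SNP. None of the ovary genes had a counted SNP, which cannot show their absence, and the epididymis gene Lcn5 had 0 to 17 reads. The macrophage gene Cd68 had 962 to 1819 reads, the endothelial genes Pecam1 and Vwf together 260 to 463, and the muscle gene Myh4 0 to 75. The shares below are thus those of whole tissue.

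H13 encodes signal peptide peptidase, an aspartyl protease of the endoplasmic reticulum membrane that cuts the signal peptides left behind in the membrane after secreted and membrane proteins have been trimmed. Mcts2, an intronless gene, lies inside an H13 intron. It is known as an imprinted retrogene that is read from the paternal chromosome, with a promoter methylated on the maternal one. H13 transcripts that stop before Mcts2 are known to come mostly from the paternal chromosome and full-length transcripts mostly from the maternal one. The comparisons below ask how far each stretch of H13 departed from equal use of the parental alleles in adipose tissue.

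In the annotation of NCBIM37 (mm9), the build of the files, H13 spans chr2:152495197-152534406 on the plus strand and its full-length transcript, H13-001, has 12 exons. A pair of short transcripts share its first exons. H13-005 has 3 exons and ends at position 152509177 inside what is intron 3 of H13-001, and H13-006 has 4 exons and ends at 152512437 inside intron 4. Mcts2 occupies chr2:152512884-152513676, so 446 bp separate the end of H13-006 from its start. The count tables place the 21 exonic SNPs in 5 exons. These are exon 1 (chr2:152495197-152495500, 1 SNP), a long form of exon 3 (chr2:152506787-152510882, 11 SNPs), a long form of exon 4 (chr2:152511834-152512443, 7 SNPs), the Mcts2 exon (1 SNP, listed first under H13) and the last exon (chr2:152530358-152534404, 1 SNP). Exons 2 and 5 to 11 of H13-001 hold no listed SNP. In H13-001 only the SNPs of exon 1 and the last exon are exonic, and the SNPs of the long exons are intronic.

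The SNPs with most reads in each of these exons are shown in 30 bases of the NCBIM37 plus strand, with the SNP base of strain B in capitals, because they are the bases by which the parents were told apart. Each token gives the B base, the position and the D base.
exon 1, C152495311T, 5′ UTR, chr2:152495297-152495326: gagcccgagcgcagCctcgccatggattcg
long exon 3, G152508308A, in a non-coding exon of H13-005, chr2:152508294-152508323: actaattatttcacGgtagcccagcagccc
long exon 4, A152512038G, coding in H13-006, chr2:152512024-152512053: tatggccctggttcAtacccagcttggtca
Mcts2 exon, C152513592T, 3′ UTR of Mcts2, chr2:152513578-152513607: aaatataaatattgCgttgtatctctgtgt
last exon, A152530393T, coding in H13-001 and non-synonymous in the files, chr2:152530379-152530408: agatccagcagccgAgactgaatccaaaga

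The exon 1 SNP lies just before the ATG that opens the H13 reading frame, which is seen in its window, and is part of every annotated H13 transcript that starts there. The last exon SNP lies 35 bases into that exon, which H13-005 and H13-006 do not contain. The genome base at all 157 SNPs was the base listed for strain B.

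Both ends of the full-length transcript were mainly maternal. At the exon 1 SNP the BxD female pool had 320 maternal and 109 paternal reads, and the BxD male pool had 273 and 123. The DxB female pool had 358 maternal and 117 paternal reads, and the DxB male pool had 272 and 100. The maternal allele was thus ahead whether it was B or D, with a maternal share of 73.0% ± 2.87 (SD, n = 4 pools) and a range from 68.9% to 75.4%. The B allele made up 74.6% and 68.9% of the reads in the BxD pools and 24.6% and 26.9% in the DxB pools, so the favoured strain changed with the cross. In the exon by exon fit, edgeR gave a log2 maternal to paternal ratio of 1.45 (SE 0.18, adjusted p = 0.0459).

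At the last exon SNP the BxD female pool had 410 maternal and 101 paternal reads and the BxD male pool had 383 and 115. In the DxB female pool the reads were 322 and 123, and in the DxB male pool they were 262 and 87. Here too all 4 pools were maternal, with a share of 76.1% ± 3.31 (SD, n = 4 pools) between 72.4% and 80.2%, and a log2 ratio of 1.68 (SE 0.16, edgeR adjusted p = 0.0108). The paternal allele was far from silent at either end, with 26.9% of the reads of exon 1 (95% Wilson interval 24.8 to 29) and 23.6% of the last exon (21.7 to 25.6), summed over the pools. Intervals cover counting error at most, and may be too narrow even for that. Mates of a pair were counted as single reads and PCR copies are not known to have been removed. In sums over SNPs, a read of 50 bp can also count at neighbouring SNPs more than 18 bp apart. The last exon minus exon 1 difference was 0.24 on the log2 scale (SD 0.36, n = 4), positive in 3 pools and -0.22 in the DxB female pool, and was within the spread between pools (exact sign-flip permutation test over pools, two-sided p = 0.375, where the smallest possible p is 0.13).

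The long exons of the short transcripts went the other way. At the long exon 3 the maternal and paternal reads, summed over 11 SNPs, were 15 and 63 (BxD female), 10 and 59 (BxD male), 12 and 67 (DxB female) and 11 and 73 (DxB male). The paternal allele was ahead in each pool, so B was the minor allele in BxD mice and the major allele in DxB mice. The maternal share was 15.5% ± 2.63 (SD, n = 4 pools), and the log2 ratio was -2.45 (SE 0.24, edgeR adjusted p = 0.0108). All 11 SNPs had more paternal than maternal reads over the pools, from 2 reads at A152509432G to 57 at G152508308A.

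The long exon 4, summed over 7 SNPs, had 12 maternal and 43 paternal reads in the BxD female pool and 6 and 50 in the BxD male pool. The DxB female pool had 12 and 37 and the DxB male pool had 7 and 40. Its maternal share was 18% ± 6.31 (SD, n = 4 pools) and all 7 SNPs had more paternal reads, but the log2 ratio of -2.20 (SE 0.29) did not pass the threshold in edgeR (adjusted p = 0.0640). The coding SNPs of H13-006, T152511956C, C152511997G and A152512038G, had maternal shares of 13.3%, 15.4% and 20.8%, close to those of the SNPs after its stop codon (14.3% to 23.1% at the 4 others). The maternal shares of the long exons, 10.7% to 24.5% across pools, did not overlap those of exon 1 and the last exon.

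**Figure D1:**
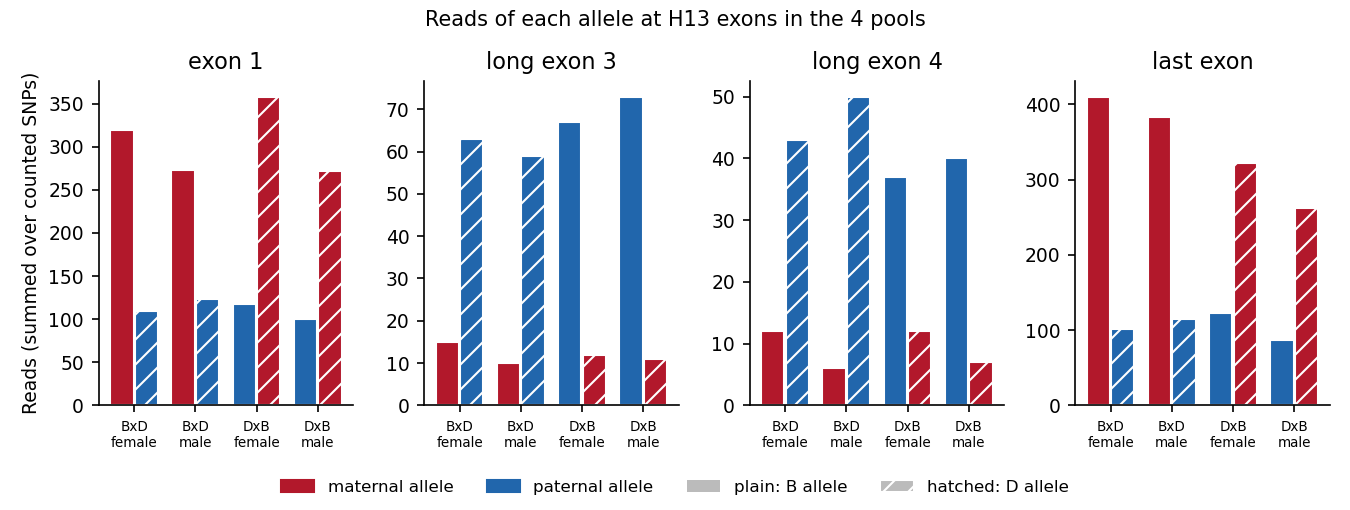
Reads of the B allele (plain bars) and the D allele (hatched bars) at counted SNPs of 4 H13 exons in each of the 4 pools, red where the allele is maternal and blue where it is paternal. Red bars are the taller ones at exon 1 and the last exon in every pool, blue bars are the taller ones at the long exons 3 and 4 in every pool, and the vertical scales differ between panels.

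Reads per SNP give a rough level at each stretch of the gene. Uneven coverage along transcripts was not examined, and exon 1 and the last exon have 1 SNP each. Summed over the pools, exon 1 had 1223 maternal and 449 paternal reads at its SNP and the last exon had 1377 and 426. The long exon 3 had 4.36 maternal and 23.8 paternal reads per SNP, and the long exon 4 had 5.29 and 24.3. Paternal reads per SNP were fewer in the long exons than at both ends, and 517 of the 4017 counted exonic reads of H13 fell in the long exons, over 18 SNPs.

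Summed over all 21 exonic SNPs, the maternal share of H13 was 66.9% ± 2.54 (SD, n = 4 pools), since the sum adds 2 maternal SNPs with many reads to 19 paternal SNPs with few. The background of the gene-wise fit was 4 genes called of 7988, or 0.0501%, and H13 was among them with a log2 ratio of 1.01 (SE 0.12, edgeR adjusted p = 0.0395). With only the SNPs that the annotation column calls exonic, and it calls all but 2 of the long-exon SNPs intronic, the log2 ratio was 1.47 (adjusted p = 0.00849). The alleles of a pool come from the same animals, and with the pool as a block the value stayed at 1.01 while the call was lost (adjusted p = 0.536). It was also lost with any 1 pool left out, with a log2 ratio of 0.97 to 1.08 and adjusted p of 0.524 to 0.698. The call was kept in edgeR with the strain of the allele as a covariate (1.01, adjusted p = 0.00908). DESeq2 kept it too (1.01, adjusted p = 7.35e-13), and neither of these fits pairs the alleles of a pool. Of 21439 exons, 8 were called (0.0373%), 3 of them in H13. With the pool as a block none was called in edgeR, while 101 exons had an unadjusted p under 0.05 and DESeq2 without the block called 11. The adjusted p of the H13 exons under the block was 0.842 for exon 1 and 0.473 for both the long exon 3 and the last exon. With a pool left out, none of the H13 exons was called, at adjusted p of 0.172 or more. With strain as a covariate and no block, edgeR called exon 1 (adjusted p = 6.56e-06) and the last exon (9.82e-08). That fit also called the long exon 3 (2.74e-08) and the long exon 4 (1.37e-05).

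**Figure D2:**
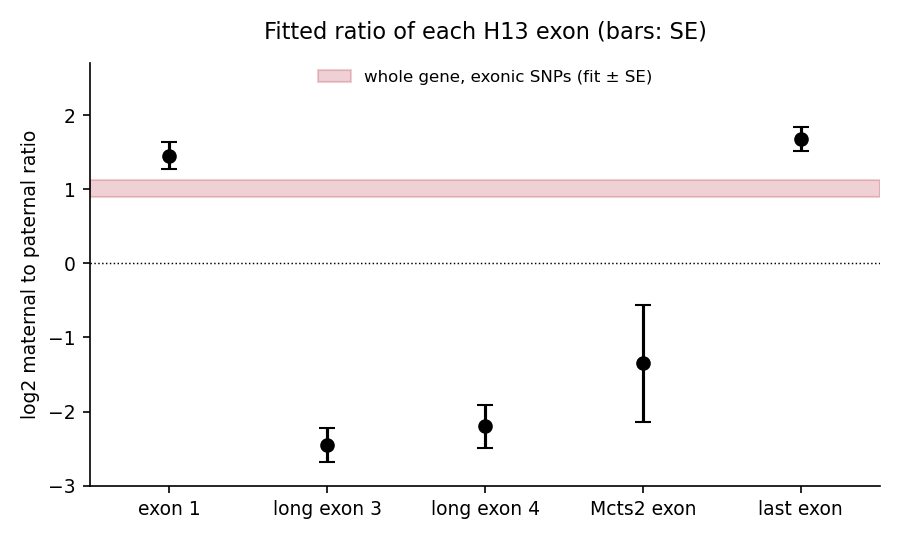
Log2 maternal to paternal ratio of each H13 exon in the edgeR fit, with its SE as bars, above 0 where the maternal allele has more reads, and the gene-wide value as a band. Exon 1 (1.45) and the last exon (1.68) lie above the band at 1.01, the long exons 3 (-2.45) and 4 (-2.20) lie below 0, and the Mcts2 exon (-1.35) has a wide SE of 0.79.

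The difference between exons within a gene was tested directly, as an exon by parent effect, with edgeR's diffSpliceDGE. Of 4582 genes with 2 or more exons, 2 were called (0.0436%), H13 and Trappc9, and H13 had the smallest p (adjusted p = 2.9e-12). H13 was also called with the pool as a block (adjusted p = 5.38e-05, 3 genes called) and with any 1 pool left out (2.38e-06 at most). Against the gene-wide log2 ratio, to which all its exons contribute, the long exon 3 was lower (-3.47, adjusted p = 5.47e-05, with the block 0.0281) and the long exon 4 was lower too (-3.21, adjusted p = 0.000534). The latter was past the threshold neither with the block (adjusted p = 0.0654) nor without the BxD male or the DxB male pool (0.0669 and 0.0675). Over all 18033 exons tested this way, 5 were called (0.0277%). Exon 1 (0.44) and the last exon (0.66) did not pass (adjusted p = 1 for both). Pool by pool, the long exons 3 and 4 together differed from exon 1 with the last exon by -3.75 (BxD female), -4.19 (BxD male), -3.59 (DxB female) and -4.13 (DxB male) on the log2 scale. The exact permutation test over the 4 pools gave p = 0.13, the smallest it can give. Fisher's exact test on the reads of each pool gave p of 1.35e-33 or less, but does not see the spread between animals. It also takes all counts as independent, though mates and reads over neighbouring SNPs are not.

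The long exon 3 of the files runs 1705 bases past the annotated end of H13-005, and both stretches had like shares. The 5 SNPs inside H13-005 had 28 maternal and 155 paternal reads (15.3% maternal, 95% Wilson interval 10.8 to 21.2), and the 6 SNPs beyond it had 20 and 107 (15.7%, 10.4 to 23.1). Polyadenylation signals were looked for in the last 50 bases of these transcripts on the plus strand, as AATAAA or ATTAAA, because the short forms differ from the full one by where they end. Among 85633 annotated transcript ends, 34.5% hold 1 of these motifs in this window. H13-005 has ATTAAA 17 bases from its end and H13-006 has AATAAA 21 bases from its end. No such letters lie in the last 50 bases of the longer exon 3 of the files, nor of H13-001, while the long form H13-002, which also reaches the last exon, has ATTAAA 40 bases from its end. The motif is in capitals in these 30-base windows of NCBIM37.
H13-005 end, chr2:152509149-152509178: gttgatccaaaaATTAAActgactcttact
H13-006 end, chr2:152512405-152512434: acatctttgccgAATAAAtaattattggat

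Intronic reads followed the same division, though they were few. In introns 1 and 2 of H13-001 the maternal and paternal reads over 37 SNPs were 14 and 39 (BxD female), 9 and 55 (BxD male), 10 and 42 (DxB female) and 8 and 20 (DxB male). Every pool was paternal there, with a maternal share of 22.1% ± 6.67 (SD, n = 4 pools), although exon 1 just before them was maternal in every pool. Intron 2 was the most one-sided stretch, with 2 maternal and 43 paternal reads and all 12 SNPs paternal. The rest of intron 3, past the long exon, had 8 maternal and 26 paternal reads over 2 SNPs.

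In introns 5 to 11, past Mcts2, the reads over 66 SNPs were 196 maternal and 90 paternal in the BxD female pool and 158 and 102 in the BxD male pool. They were 166 and 91 in the DxB female pool and 113 and 79 in the DxB male pool. All pools were maternal there, at 63.2% ± 4.29 (SD, n = 4 pools), below the 76.1% of the last exon. Of these SNPs 53 had more maternal and 7 more paternal reads, and 4 of the 7 lay in intron 9. That intron had 17 maternal and 42 paternal reads over 6 SNPs (28.8% maternal, 95% Wilson interval 18.8 to 41.4), between intron 8 with 73 and 20 and intron 10 with 196 and 109. The intron 10 SNP with most reads, C152525092T, had B ahead in every pool. Its B and D reads were 4 and 0 (BxD female), 13 and 2 (BxD male), 7 and 1 (DxB female) and 16 and 1 (DxB male), and are part of these sums. In single pools the maternal reads of intron 9 were 6 of 20, 2 of 18, 9 of 16 and 0 of 5, in the order of the pools above, and 0 of 5 reads has a 95% Wilson upper limit of 43.4% (60% by the coarser limit of 3 counts of the total).

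The introns downstream of Mcts2 exceeded those upstream by 1.95 (BxD female), 2.67 (BxD male), 2.94 (DxB female) and 1.44 (DxB male) on the log2 scale, a mean of 2.25 (SD 0.69, n = 4) with the same sign in all 4 pools. The exact permutation test over pools again gave the smallest two-sided p it can give, 0.13. As both sides oppose each other, all 117 intronic SNPs together gave a log2 ratio of only 0.30 (SE 0.22, edgeR adjusted p = 1), with 3 of 9560 genes called by intronic SNPs (0.0314%), none by edgeR with the pool as a block (60 at an unadjusted p under 0.05), and H13 in neither case among them.

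**Figure D3:**
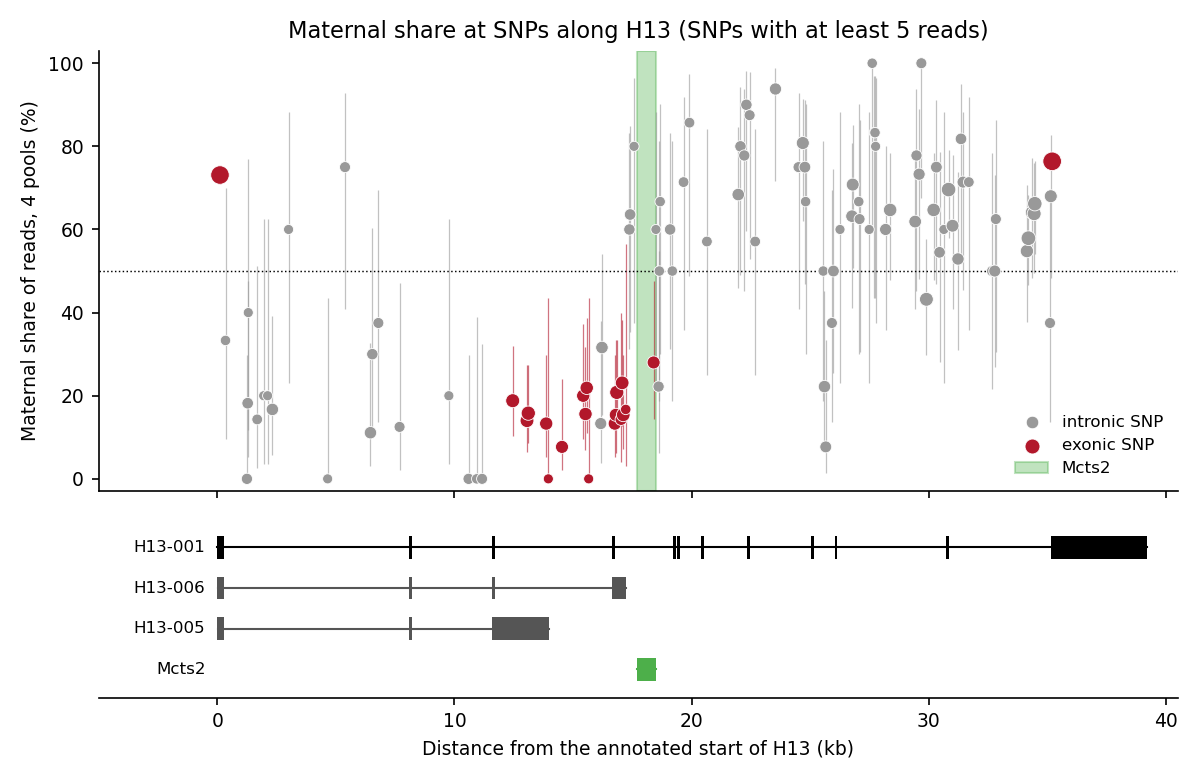
Maternal share of reads over the 4 pools at each counted H13 SNP with at least 5 reads, against its distance in kb from the H13 start, with exonic SNPs in red, intronic SNPs in grey, larger points for more reads and vertical lines for 95% Wilson intervals. The SNP of exon 1 stands at 73.1%, most others before Mcts2 (green) lie below 50%, and most after it lie above, up to the last exon at 76.4%. Below, the exons of H13-001, of the short H13-006 and H13-005, and Mcts2 are drawn to the same scale.

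Between the long exon 4 and intron 6 the reads were too few to place a change from paternal to maternal. The last SNP of the long exon 4, G152512416A, lies before that end and had 1 maternal and 5 paternal reads. The next, C152512571T, lies 155 bp on and had 6 and 4. Over the 3 counted SNPs between H13-006 and Mcts2 there were 17 maternal and 9 paternal reads (65.4% maternal, 95% Wilson interval 46.2 to 80.6), with 7 of 9, 6 of 9, 2 of 6 and 2 of 2 reads maternal in the 4 pools, so the DxB female pool went the other way on 6 reads. Of these SNPs, C152512571T and T152512601G lie within a read length of each other, so some reads may count at both. The Mcts2 SNP, in the 3′ UTR of Mcts2, had 5 maternal and 4 paternal reads in the BxD female pool, and the counts in the other pools were 0 and 5 (BxD male), 1 and 6 (DxB female) and 1 and 3 (DxB male). Its log2 ratio of -1.35 (SE 0.79) did not pass in edgeR (adjusted p = 1), and 25 reads in all leave a 95% Wilson interval of 14.3% to 47.6% around the maternal share of 28.0%. The strand of the reads is not known from the sources used here, and a read there may come from Mcts2 or from an H13 precursor, which lie on the same strand. Mcts2 itself therefore has no count of its own. Past it, the 9 SNPs in the rest of intron 4 had 25 maternal and 22 paternal reads (53.2% maternal, 39.2 to 66.7), with 4 of 7, 10 of 11, 6 of 14 and 5 of 15 maternal in the 4 pools.

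**Figure D4:**
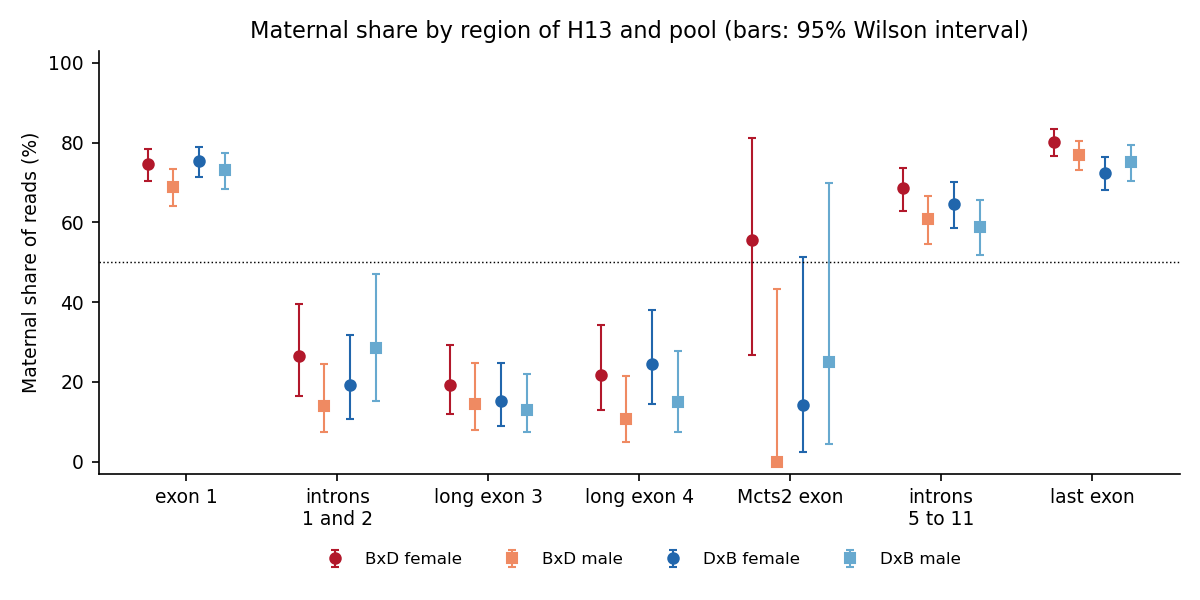
Maternal share of reads (%) in 7 regions of H13 in their order along the gene, with 1 point per pool and its 95% Wilson interval. Exon 1, introns 5 to 11 and the last exon lie above 50% in every pool, introns 1 and 2 and the long exons lie below it in every pool, and the intervals at the Mcts2 exon are wide.

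The region between H13-006 and Mcts2 holds the Mcts2 promoter. Its 250 bases before the Mcts2 start are given because the introns were compared on either side of Mcts2. The reads around them were too few to place a change of parental share there. They come from RefSeq on GRCm38.p6 (chr2:152686898-152687147, plus strand), and the same letters stand in NCBIM37 at chr2:152512634-152512883. CG dinucleotides, where DNA can be methylated, are in capitals.
Mcts2 promoter: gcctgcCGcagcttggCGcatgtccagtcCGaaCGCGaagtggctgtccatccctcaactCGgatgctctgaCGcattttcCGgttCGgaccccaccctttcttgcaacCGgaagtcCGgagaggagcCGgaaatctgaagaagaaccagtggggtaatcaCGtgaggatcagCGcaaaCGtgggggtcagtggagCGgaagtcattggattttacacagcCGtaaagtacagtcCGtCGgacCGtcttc

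It holds 20 CG (the pattern reads alike on both strands), against a median of 6 over the 32851 promoters of this length, of which 17.9% hold at least as many. The H13 promoter holds 18. Methylation was not measured in these data.

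When all exonic SNPs were split at the Mcts2 start, the downstream side had a maternal share of 75.5% ± 3.48 and the upstream side 59.6% ± 3.63 (SD, n = 4 pools each). The difference was 1.29 (BxD female), 1.35 (BxD male), 0.53 (DxB female) and 1.10 (DxB male) on the log2 scale, with a mean of 1.07 (SD 0.37) and an exact permutation p of 0.13, the smallest possible. The downstream side is the last exon SNP, with 1803 of its 1828 reads, and the Mcts2 SNP. The upstream side joins the maternal exon 1, whose SNP holds 1672 of its 2189 reads, with the paternal long exons. With exonic SNPs as the annotation column has them, which drops most of the latter, the difference was 0.42 (exact permutation p = 0.250).

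No effect of strain or sex on H13 passed its test. The log2 D to B ratio was 0.10 (SE 0.32, edgeR adjusted p = 0.898), in a fit that called 1414 of 7988 genes (17.7%), or 2175 with the pool as a block. The sign of the ratio turned with the setting, from -0.26 without the DxB female pool to 0.45 without the BxD female pool. That fit had no parent term, so the parental ratio of H13 entered the spread it was tested against. The strain test therefore does not show that the strains were alike. The maternal share over exonic SNPs was 70.4% and 66.8% in the female pools and 65.6% and 64.6% in the male pools. The parent by sex term was -0.24 (SE 0.26, adjusted p = 1, 11 genes or 0.138% called), which does not show that the sexes were alike.

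Genes of proteins that work like or with signal peptide peptidase were searched for the same parental lead. Of 10 intramembrane proteases and gamma-secretase subunits searched, 5 had counted exonic SNPs and 1, H13, was called, beside 0.0501% of all genes, so that the lack of a call among the other 4 is no result about them. Sppl3, a signal peptide peptidase-like protease, had a maternal share of 49.7%, Psen2, a catalytic subunit of gamma-secretase, 51.9%, and Ncstn, its substrate receptor, 50.2%, or 60.1% and 58.7% in the BxD and 39.5% and 39% in the DxB pools (log2 ratios between -0.05 and 0.10, edgeR adjusted p = 1 for each). Of 11 genes of signal peptide cleavage and of the degradation of proteins from the endoplasmic reticulum, 5 had counts and none was called by edgeR or had an unadjusted p under 0.05, which at 0.0501% over all genes is no result about the list. The ubiquitin ligase Syvn1 had 50.3% maternal reads, its partner Sel1l 50%, Derl2, of the same degradation pathway, 50.4%, and the ATPase gene Vcp, with 100 reads, 100% and 100% in the BxD pools and 4.35% and 0% in the DxB pools, almost only B reads in each pool. Whether strain D truly carries another base where Vcp was counted was not checked here. The median log2 ratio was 0.04 in the first list without H13 and 0.01 in the second, beside -0.01 over all genes. Of other imprinted retrogenes and their hosts (Zrsr1 and Commd1, Nap1l5 and Herc3, Inpp5f), only Inpp5f had exonic counts, and its counted SNP lists the same base for both strains, so these data give no parental share for it.

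The genes around H13 were described in the same way. Within 500 kb of the outermost H13 SNPs 15 genes had SNPs, 12 had counted exonic reads, and H13 was the one called (median log2 ratio of the other 11 -0.03), where 0.0501% of all genes were called, so no call among the 11 says little about them. Rem1, a small GTPase gene 34.7 kb before H13 (by its median exonic SNP), had a maternal share of 36.8% and 34.8% in the BxD pools and 57.3% and 60.4% in the DxB pools, with the D allele ahead in all 4. BC020535 showed the reverse, with 60.3% and 60.8% in BxD and 41.3% and 35.4% in DxB. Pdrg1 had 46.7% to 51.5% and Tm9sf4 had 43.0% to 56.0%.

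**Figure D5:**
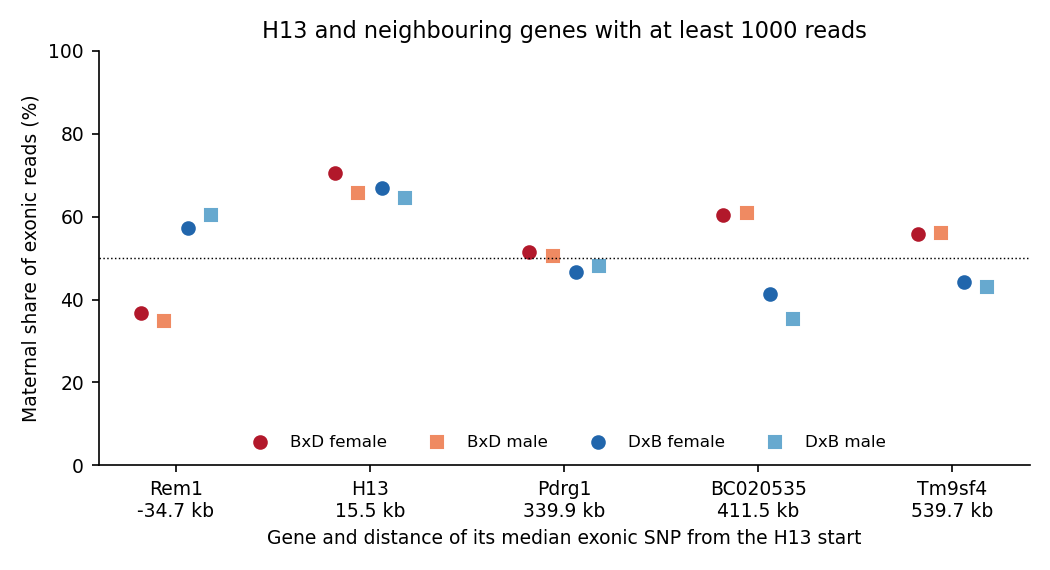
Maternal share of exonic reads (%) in each pool for H13 and the 4 neighbours with at least 1000 reads, ordered by the distance of the median exonic SNP from the H13 start. All 4 points of H13 lie between 64.6% and 70.4%, while at Rem1, BC020535, Pdrg1 and Tm9sf4 the BxD points and the DxB points lie on opposite sides of 50%.

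The profile of H13 across the pools was set beside those of other genes. Among 3014 genes with at least 100 counted exonic reads in every pool, 59 had a maternal share over 50% in all 4. The nearest by Euclidean distance of the 4 shares were Lmo2 (20.7 percentage points), 5930416I19Rik (23.7) and 2610209A20Rik (23.9). Lmo2, a LIM domain transcription cofactor gene, had shares of 59.8%, 62.8%, 54.1% and 52.6%, all below those of H13, and none of the 3 was called by parent of origin (edgeR adjusted p = 1 for each, unadjusted p 0.106, 0.175 and 0.129).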

How the data were processed

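Libraries of polyA RNA from 4 pools of F1 gonadal fat were sequenced by the authors as read pairs of 50 bp. Per their methods, mates were treated as single reads and aligned to mm9 with mrsFAST (up to 3 mismatches), reads left over were aligned with TopHat (version 1 in the submitters' processing notes, which also list CASAVA), and uniquely mapped reads were kept. The deposited values are raw counts of B and D reads per SNP, with a gene, an annotation and exon or intron bounds. Other versions are not given in the sources used here.

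A SNP listed under several genes was kept under the first. Parents were assigned by file name, because gene sums so made equalled the paper's supplementary counts in 99.95% or more of 1996 genes, against 1.20% for the disputed pools under the labels. Exonic SNPs were summed per gene (44210 SNPs, 7988 genes) or exon. The 8 allele libraries were fitted with parent of origin as factor in edgeR 4.0.16 on R 4.3.3 (TMM, quasi-likelihood F-test, Benjamini-Hochberg adjustment, threshold 0.05). The SE is the absolute log2 ratio over the square root of F. There is 1 pool per cross and sex, and the permutation p-values measure the spread between these 4 pools. The edgeR p-values by parent measure the spread between allele libraries, with information shared over genes. Strain differences enter that spread unless strain is a covariate. The pool pairs its alleles, which share animals, and deviations of the 2 alleles from their strain means correlated at r of 0.653, 0.154, 0.669 and 0.114 over 4614 genes (from their parent means, which strain differences enter, at -0.684, -0.720, -0.682 and -0.752). Ratios per pool used a pseudocount of 0.5 read. DESeq2 1.42.0 and other settings were alternatives. The fits were tested on simulated counts. Members, lists and rules were chosen with earlier results of these data known. Named were H13, Mcts2, the 3 genes nearest in maternal share, and list members with at least 100 reads or past the threshold, besides cell type markers. Of the neighbours, those with at least 1000 reads are shown, and 1 that the rule would name is not reported here. Tables and figures were made with Python 3.11.15. The last column of the tables, a flag of unstated meaning, was not used.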

Additional observations from a re-analysis of the deposited data

Results flagged for a closer look

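Over 28 regions or sums of regions of H13, the maternal shares of the 4 pools were searched for 1 pool apart from the rest, which chance gives in about 1 of 20 groups. Intron 2 had such a pool, BxD female, with 15.4% maternal (2 of 13 reads) and no maternal read in the others. In intron 7 the DxB male pool had 25.0% (1 of 4 reads), against 72.2% to 81.0% elsewhere. For exon 1 and the last exon together, the BxD female pool had 77.7%, against 73.4% to 74.1%. In the rest of intron 4 past Mcts2 the BxD pools were maternal and the DxB pools paternal, so the B allele had more reads in all 4, with a difference of 2.25 on the log2 scale between the crosses. That difference was not tested, and rests on 7 to 15 reads per pool.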

How the results depend on the processing

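The 4 pools limit every p-value, and reads per pool limit the introns and the Mcts2 SNP. Across DESeq2, 1 library size per pool, at least 10 counts, all exonic SNPs, the strain covariate, the pool as a replicate block, the label identity and each pool left out, the log2 ratio of single H13 exons kept its direction in 53 of 55 alternatives, the 2 others being the label identity at the long exon 4 (0.032) and the Mcts2 exon (0.99). That identity averages opposite parental ratios, so its signs say little, also where they were kept (0.0040 at exon 1, -0.11 at the long exon 3). The gene-wide edgeR call of H13 was lost with all exonic SNPs (log2 ratio 0.999, adjusted p = 0.0501) and with intronic SNPs added (0.83, adjusted p = 0.203). It was also lost with the replicate block (1.01), under the label identity (0.025) and with a pool left out (0.97 to 1.08). The number of genes called was 7 with DESeq2 and with strain as a covariate, 2 with all exonic SNPs or those of the annotation column, 0 with the block (37 at an unadjusted p under 0.05) or the label identity (38), and 0 to 1 with a pool left out (35 to 58). DESeq2 and the strain covariate called 4 H13 exons and all exonic SNPs 2, while the block, the label identity and a left-out pool called 0 (0 to 0) of the 3. H13 exons that differed from their gene numbered 1 with the block, 0 under the label identity and 1 to 2 with a pool left out, instead of 2. Under the label identity, exon 1, the long exon 4 and the Mcts2 exon turned against the gene (-0.0094, 0.018 and 0.98), as did the introns downstream minus upstream of Mcts2 (-0.56), and this identity swaps the parents of 1 BxD and 1 DxB pool. The D to B ratio turned to -0.060 with 1 library size per pool. It ranged from -0.26 to 0.45 with a pool left out, where the unequal crosses let the parental ratio enter it. The comparisons of last exon with exon 1, of the long exons with the ends and of introns were chosen after seeing the data. The causes were not tested. Genes with a difference between exons numbered 3 with the block instead of 2, and with it the calls on H13 by intronic SNPs, strain and sex were as before.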
